A study of Mus musculus with 72 samples.

Results

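IKAROS promoter sites lacking ETS1 were the IKAROS ChIP-seq peaks of resting mouse splenic B cells (rBs) that stood near a gene start and carried no ETS1 peak. They were chosen by their peak calls in wild type (WT) cells: a peak of the first WT IKAROS library had to overlap a peak of the second by at least 1 bp, reach to within 1000 bp of an annotated protein-coding transcript start, and overlap no peak of either WT ETS1 library. This rule gave 2897 sites near the starts of 2387 genes, out of 9102 IKAROS peaks in the first WT library, of which 8428 overlapped a peak of the second. The other replicated peaks were 1008 promoter sites with ETS1, 2980 distal sites lacking ETS1 and 1543 distal sites with ETS1. The WT calls are thus a description, and the rule did not use the libraries of rBs without HMGN1 and HMGN2 (DKO). Where WT and DKO values are set against each other below, the WT side also served to choose the sites.

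The study asked whether HMGN1 and HMGN2, nucleosome-binding proteins abundant in most cells, alter the chromatin occupancy of transcription factors. WT mice were Hmgn1+/+n2+/+ and DKO mice Hmgn1-/- n2-/-, both labelled strain C57BL/6, and rBs from spleen were profiled in 2 biological replicates per genotype for each antibody. All groups were untreated as far as the labels say, and age and the number of animals per replicate were not given in the sources used here. The first IKAROS WT library held 9102 peaks, the second 10969, and the DKO libraries 5032 and 4838. All 9 annotated B cell markers examined, among them Cd79a and Ms4a1, had a promoter IKAROS peak in both WT libraries and 7 of 9 in each DKO library, against 1 of 25 T cell markers and 0 of 23 myeloid and erythroid markers in all 4 libraries.

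IKAROS, the product of Ikzf1, is a zinc finger protein that binds DNA and recruits chromatin remodelling and histone deacetylase complexes, and it is needed for lymphoid development and B cell identity. ETS1 is the founding member of the ETS family, whose members bind a GGAA core that resembles the GGGAA core of IKAROS sites. Both proteins occupy promoters and enhancers in B cells. HMGN proteins are small nuclear proteins that attach to nucleosomes and compete there with linker histone H1.

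Sequences are shown first for the most strongly occupied sites and for the strongest ones that had no DKO peak. The stretches lie within 100 bp of the summit of the first WT library, are read on the plus strand of mm9 and leave out annotated UTRs. Capitals mark the IKAROS motif TGGGAA or its reverse complement, and none of the runs holds the ETS motif CCGGAAG on either strand. By the mean −log10 q of the WT libraries, Arrdc3 and Pcbp1 are the strongest of all sites, and both were kept in both DKO libraries.
Arrdc3, chr13:81025024-81025224: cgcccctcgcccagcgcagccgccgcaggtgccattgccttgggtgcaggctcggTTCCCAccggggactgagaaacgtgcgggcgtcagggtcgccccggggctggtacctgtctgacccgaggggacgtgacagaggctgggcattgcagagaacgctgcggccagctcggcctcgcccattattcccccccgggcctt
Pcbp1, chr6:86476301-86476501: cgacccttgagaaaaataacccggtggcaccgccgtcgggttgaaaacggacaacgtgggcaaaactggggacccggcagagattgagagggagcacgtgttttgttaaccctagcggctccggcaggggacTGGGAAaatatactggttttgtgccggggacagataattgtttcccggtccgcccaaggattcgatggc
H2-Ob and the pair 2210012G02Rik and Tmem59 led the sites with no peak in either DKO library, but there the second WT library's summit lay outside the peak of the first.
H2-Ob, chr17:34375531-34375731: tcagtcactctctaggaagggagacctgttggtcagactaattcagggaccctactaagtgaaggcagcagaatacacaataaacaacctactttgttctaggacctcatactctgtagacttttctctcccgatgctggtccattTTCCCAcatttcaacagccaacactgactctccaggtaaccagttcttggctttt
2210012G02Rik and Tmem59, chr4:106850743-106850842: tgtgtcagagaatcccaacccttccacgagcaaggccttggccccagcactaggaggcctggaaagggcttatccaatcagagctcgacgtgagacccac
Hmgn2 and Grk6 were added after their values were seen, since they led those sites once the second summit had to lie inside.
Hmgn2, chr4:133523562-133523724: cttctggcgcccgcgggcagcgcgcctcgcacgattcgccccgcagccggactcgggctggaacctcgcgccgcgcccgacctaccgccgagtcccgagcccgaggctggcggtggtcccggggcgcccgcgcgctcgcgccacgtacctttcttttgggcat
Grk6, chr13:55546100-55546296: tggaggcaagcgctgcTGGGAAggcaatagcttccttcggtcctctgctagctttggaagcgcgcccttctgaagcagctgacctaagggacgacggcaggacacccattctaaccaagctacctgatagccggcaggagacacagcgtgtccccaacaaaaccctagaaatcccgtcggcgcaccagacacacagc
Of these 6 runs, 4 hold a TGGGAA match and the Tmem59 and Hmgn2 runs hold none in the stretch printed.

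Loss of HMGNs was accompanied by fewer IKAROS promoter peaks lacking ETS1. The first WT library held 3094 such peaks, the second 3776, DKO replicate 1 held 1940 and DKO replicate 2 held 1779. Both DKO libraries were below both WT libraries. The log2 number changed by -0.88 ± 0.14 (SE, n = 2 per genotype), with an adjusted p of 0.0126 in limma over the promoter peak numbers of 16 antibodies in 64 libraries. With DKO replicate 1 left out the change was -0.94 and the adjusted p 0.0837, and with DKO replicate 2 left out it was -0.82 and 0.0959. Such peaks made up 34.0% and 34.4% of all peaks in the WT libraries and 38.6% and 36.8% in the DKO libraries. In the same limma fit most of the 16 antibodies had an adjusted p below 0.05. Promoter peaks of every other rB antibody fell further, with log2 changes of -2.25 for ETS1, -2.03 for IRF8, -4.10 for PAX5 and -3.44 for OCT2.

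Somewhat more than 50% of the 2897 sites kept a peak in each DKO library. DKO replicate 1 had a peak at 1627 of them, or 56.2% (95% Wilson interval 54.3 to 58.0), and DKO replicate 2 at 1488, or 51.4% (49.5 to 53.2), a mean of 53.8% ± 3.4 (SD, n = 2). With the same number of top peaks taken from each library the mean was 81.5% of 1564 sites. Over all 8428 replicated IKAROS sites the shares were 51.6% and 49.6%. Both DKO libraries had a peak at 1351 sites, 46.6% of them, against 44.4% of all replicated sites, 413 sites had a peak in 1 library, and 1133, or 39.1%, had one in neither, against 43.2%. Without the condition of a second WT peak, 93.6% of the first WT library's promoter peaks lacking ETS1 were found in the second, and 52.8% and 48.2% in the DKO libraries. In the other direction, 72.2% of those of the second WT library were found in the first, and 42.1% and 38.3% in the DKO libraries. In both directions the shares found in the DKO libraries lay below the share found in the other WT library.

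Nearly every DKO peak of this kind was also a WT peak. Of the 1940 promoter peaks lacking ETS1 in DKO replicate 1, 97.3% overlapped a peak of the first WT library and 99.1% one of the second, and for DKO replicate 2 the shares were 98.4% and 99.4%. The WT IKAROS lists were longer, with 9102 and 10969 peaks against 5032 and 4838, and like counts over all IKAROS sites are not given here. When the peaks of all 4 libraries were merged, 988 of 3885 promoter sites lacking ETS1 were called in both WT and neither DKO library, and 2 in both DKO and neither WT library. These 2 sites, named after their values were seen, lay near Myc, a transcription factor that drives growth and that also had 2 WT sites without a DKO peak, at chr15:61817208-61817586 with fold enrichments of 5.45 and 3.79, and near Tnpo1, a nuclear import receptor, at chr13:99696462-99696637 with 5.12 and 4.77.

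Strength in WT cells went with retention throughout. The −log10 p of the Poisson test at the summit in the first WT library served as the measure of strength. Among the 374 sites with a −log10 p up to 10, 10.4% (7.7 to 13.9) had a peak in DKO replicate 1 and 9.4% (6.8 to 12.7) in DKO replicate 2. Between 15 and 20 the shares among 444 sites were 46.2% and 36.9%, and between 30 and 50 they were 90.4% and 88.8% of 457 sites. Above 50, 439 of 441 sites had a peak in DKO replicate 1 and 437 in DKO replicate 2. The share rose with each class in both libraries. The intervals of neighbouring classes did not overlap, but they cover counting error over sites only, and sites are not replicates. The 1351 sites kept in both DKO libraries had a median −log10 p of 35.8 and fold enrichment of 11.97 in the first WT library, and the 1133 kept in neither had 12.7 and 6.10.

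**Figure D1:**
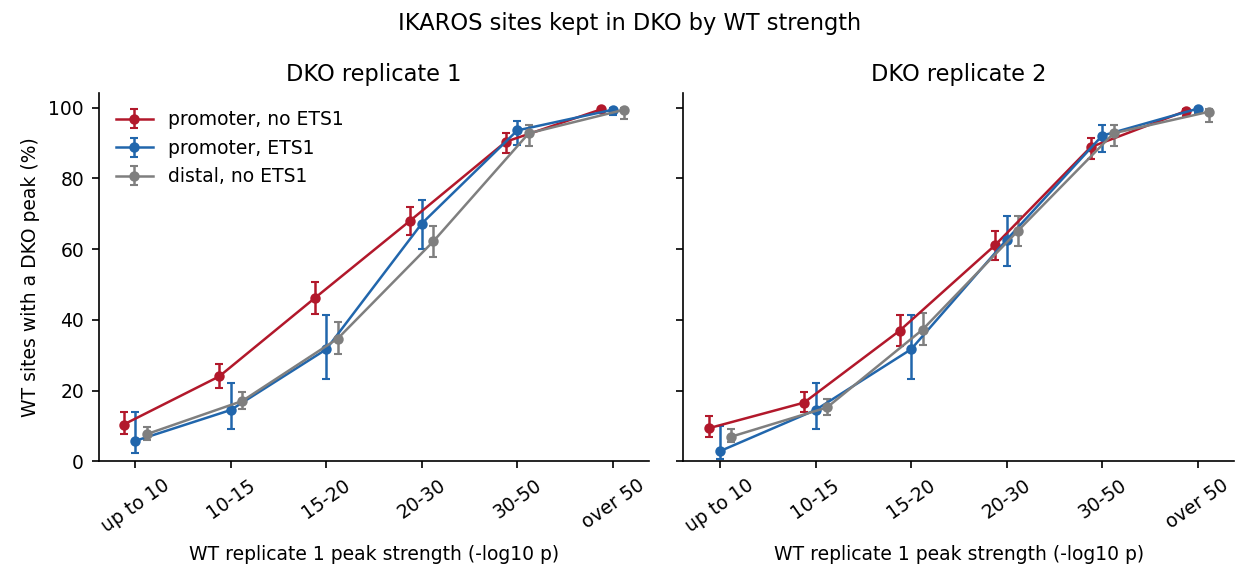
Share of WT IKAROS sites with a peak in DKO replicate 1 (left) and DKO replicate 2 (right), in percent, by the −log10 p of the peak in the first WT library, with 95% Wilson intervals, for promoter sites lacking ETS1 (red), promoter sites with ETS1 (blue) and distal sites lacking ETS1 (grey). The 3 kinds of site rise together to nearly all sites, with red at 10.4% and 9.4% in the weakest class and 99.5% and 99.1% in the strongest.

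Promoter sites with ETS1 were kept more often than those lacking it, and distal sites lacking ETS1 less often. The shares with ETS1 were 69.6% and 68.5%, so that sites lacking ETS1 were 13.5 points lower in DKO replicate 1 and 17.1 points lower in DKO replicate 2, a mean difference of -15.3 points. Distal sites lacking ETS1 were kept in 36.8% and 36.9% of cases, and promoter sites lacking ETS1 exceeded them by 19.3 and 14.4 points, a mean of 16.9. With the same number of top peaks taken from each library the mean differences were -6.36 points from promoter sites with ETS1 and 4.32 points from distal sites (0.98 in DKO replicate 2). With full lists the 2 shares of each kind did not overlap with those of the other kinds. The exact permutation test (two-sided, 2 shares against 2) gave p = 0.333 for both differences, the smallest value this test allows. It did not use the pairing of the shares, which come from the same 2 DKO libraries. Distal sites with ETS1 had 59.6% and 58.6% and were neither tested nor standardised below.

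These kinds of site also differed in strength. The median −log10 p in the first WT library was 20.2 for promoter sites lacking ETS1, 32.9 for those with ETS1 and 14.1 for distal sites lacking ETS1. When the shares of the other kinds were standardised to the strength classes of the promoter sites lacking ETS1, those with ETS1 came to 51.6% and 50.2% and distal sites lacking ETS1 to 51.8% and 52.2%, beside 56.2% and 51.4%. The mean difference from promoter sites with ETS1 then changed sign, to 2.86 points (4.53 and 1.19 in the 2 DKO libraries), and that from distal sites fell to 1.78 points (4.39 and -0.82). Between a −log10 p of 20 and 30 the shares with ETS1 were 67.2% and 62.6%, beside 68.1% and 61.1% without it. Between 30 and 50 they were 93.6% and 92.1%, beside 90.4% and 88.8%. Between 15 and 20 the share with ETS1 was 31.7% of 101 sites in both libraries, with a Wilson interval of 23.4 to 41.3. In DKO replicate 1 this lay below the interval of 41.6 to 50.8 without ETS1, and in DKO replicate 2 it overlapped that of 32.6 to 41.5. These intervals cover counting error over sites only.

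Up to a −log10 p of 50, wide peaks were kept more often than narrow ones of the same strength. Above 50, nearly all were kept at any width, with 5 of 5 peaks up to 200 bp and 221 of 222 wider than 450 bp in each DKO library. Over all strengths, 25.1% and 19.2% of the 740 peaks up to 200 bp wide had a DKO peak in replicates 1 and 2, against 86.6% and 84.4% of the 716 wider than 450 bp. Between a −log10 p of 10 and 15 the shares were 13.3% and 6.64% for 256 peaks up to 200 bp and 46.4% in both libraries for 69 peaks wider than 450 bp. Between 20 and 30 they were 49.6% and 36.2% of 127 narrow peaks, and 91.2% and 85.0% of 147 wide ones. When an overlap required the summit to lie inside the other peak, the mean share over all sites was 52.7%. Shares by width were not worked out under that rule. Median width was 405 bp at sites kept in both DKO libraries and 212 bp at sites kept in neither.

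**Figure D2:**
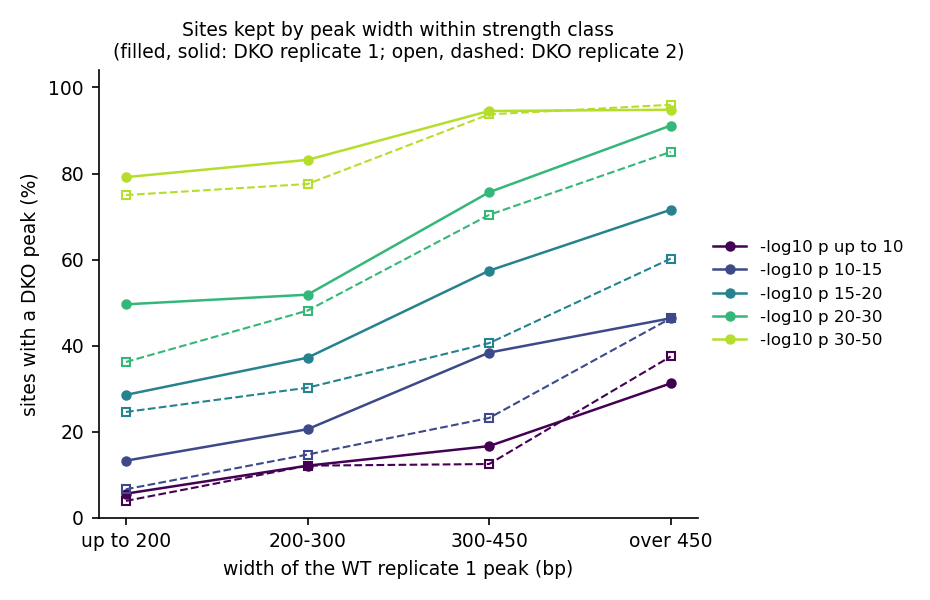
Share of ETS1-lacking IKAROS promoter sites with a DKO peak, in percent, by the width of the WT peak in bp, with 1 colour for each class of −log10 p up to 50 and separate lines for DKO replicate 1 (filled, solid) and DKO replicate 2 (open, dashed). Shares rise with width within each class below a −log10 p of 30, for example from 13.3% to 46.4% between 10 and 15 in DKO replicate 1.

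The 10 strongest sites were taken by the mean WT −log10 q. All of them had a peak in all 4 libraries, and at each of them both DKO values were below both WT values. At Arrdc3, which encodes an arrestin-like adaptor, the peak at chr13:81024879-81025973 (summit in an intron) had fold enrichments of 92.4 and 89.4 in the WT libraries and 29.6 and 23.5 in the DKO libraries. At Pcbp1, an RNA-binding protein, chr6:86476204-86477528 had 62.2 and 75.6 in WT and 29.4 and 28.0 in DKO. Both sites had DKO values well below both WT values. Elk4, an ETS family factor that works with SRF, had 49.8 and 45.9 in WT and 36.9 and 33.5 in DKO at chr1:133903823-133904598, the smallest gap among the 10. Rel, the c-Rel subunit of NF-κB, had 42.8 and 48.6 in WT and 26.1 and 20.4 in DKO at chr11:23668607-23671012. Dusp2, a phosphatase of MAP kinases, had 48.2 and 47.8 in WT and 18.2 and 16.2 in DKO. The others were Plekhm1, Mll5 with 5031425E22Rik, Klhl24, Shisa5 and Efcab2, with WT values from 29.8 to 53.8 and DKO values from 12.3 to 25.7. At Shisa5 the second WT summit lay outside the first WT peak.

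**Figure D3:**
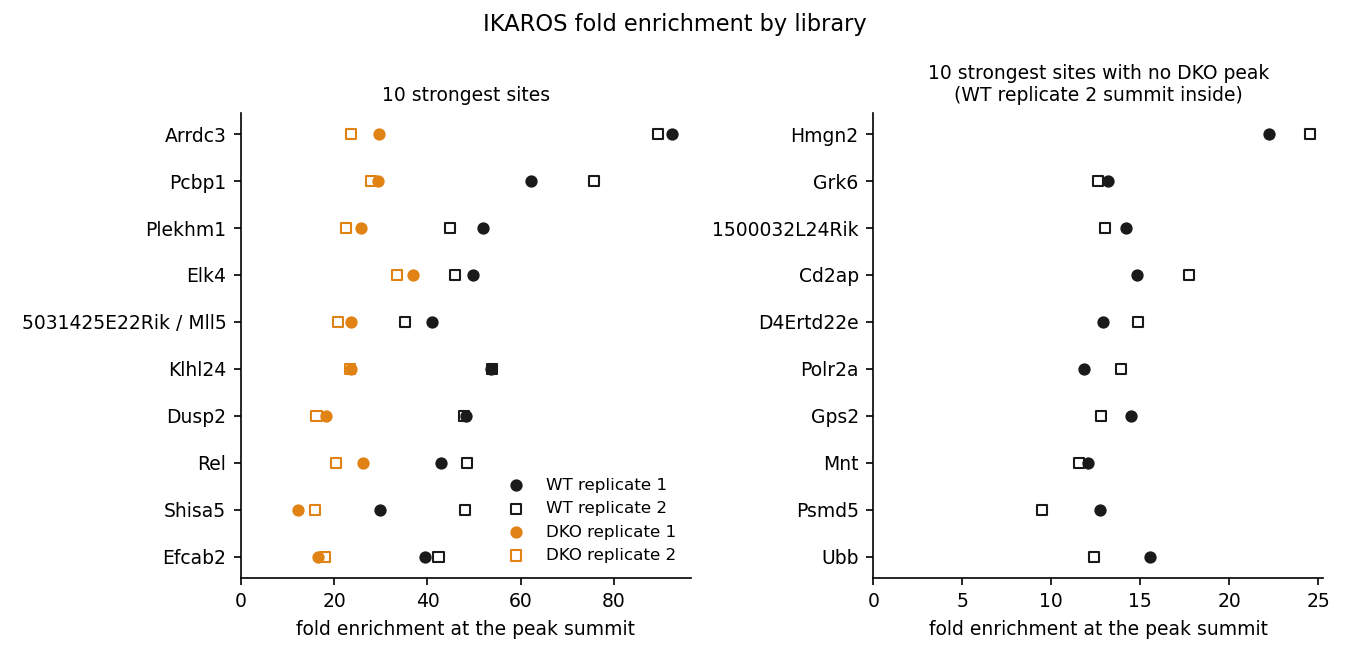
Fold enrichment over local background at the peak summit in each IKAROS library (WT black, DKO orange, replicate 1 filled circles, replicate 2 open squares) for the 10 strongest ETS1-lacking promoter sites (left) and the 10 strongest ones with no DKO peak whose second WT summit lay inside the first WT peak (right, WT values only). Strength here is the mean WT −log10 q. On the left all DKO points lie below the WT points of the same site, from 92.4 against 29.6 at Arrdc3 to 49.8 against 36.9 at Elk4.

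Of the 10 sites with the highest mean WT −log10 q and no DKO peak, 9 had the second WT library's summit outside the first library's peak. At H2-Ob, the beta chain of the MHC class II modulator H2-O, the lost peak at chr17:34375297-34375731 had fold enrichments of 12.8 and 25.2, but the second value belonged to a wider peak that also covered chr17:34375827-34376680, which was kept with 27.3 and 25.2 in WT and 15.8 and 16.8 in DKO. The Eif2a and Serp1 promoter was alike, with a lost flank of fold enrichment 7.22 beside a kept peak of 31.1 in the first WT library. The other 7 sites of this kind were at Tmem59 with 2210012G02Rik, Aff1, Azi2, Puf60, Cnpy3, Arf6 with Gm9887 and Aff3, with 4.09 to 12.3 in the first WT library and 23.9 to 33.9 in the second. All 7 lay in merged sites called in both DKO libraries, where fold enrichment was 20.7 to 38.6 in the first WT library and 8.98 to 15.001 in the DKO libraries. Over all 2897 sites the second summit lay inside the first peak at 2621, or 90.5%. Of the 1133 sites with no overlapping DKO peak, 77 joined a DKO peak once the 4 lists were merged into sites, and 370, or 32.7%, had a DKO peak within 500 bp.

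Where the second summit lay inside, the strongest site with no DKO peak was at Hmgn2 itself, one of the genes deleted in DKO mice. The peak at chr4:133523475-133523851 (summit in an intron, 146 bp downstream of the nearest start) had fold enrichments of 22.2 and 24.5 in WT and no peak in either DKO library. H3K27ac of mouse embryonic fibroblasts (MEFs) had a peak at the same place in both WT libraries, and neither of its DKO libraries had one. The extent of the deleted segment was not given in the sources used here, so absent DNA and absent occupancy cannot be told apart at this site. The next sites were at Grk6, a kinase of G protein-coupled receptors, with 13.2 and 12.6 in WT at chr13:55546094-55546296, and at 1500032L24Rik, Cd2ap, D4Ertd22e, Polr2a, Gps2, Mnt, Psmd5 and Ubb, with WT values from 9.50 to 17.7. At Polr2a, the large subunit of RNA polymerase II, a neighbouring peak at chr11:69572253-69572536 was kept, with 39.3 and 39.96 in WT and 16.4 and 19.7 in DKO.

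The 3 sites with the lowest mean WT −log10 q among those kept in both DKO libraries were at Atrx, Tiparp and Lmbrd1. Low WT values and a call in both DKO libraries were conditions of this choice, which favours DKO values above WT, so the values are a description. At Atrx, a chromatin remodeller of the SNF2 family, chrX:103124313-103124610 (summit in the 5′ UTR) had fold enrichments of 4.26 and 3.11 in WT and 5.67 and 6.10 in DKO. At Tiparp with 4931440P22Rik, chr3:65332508-65332936 had 3.01 and 3.12 in WT and 5.17 and 6.88 in DKO. Lmbrd1, which encodes a lysosomal membrane protein needed for cobalamin export, had 4.30 and 4.15 in WT and 5.17 and 4.02 in DKO. The groups did not overlap at the first 2 sites, where DKO was higher, and overlapped at Lmbrd1.

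At sites that were kept, enrichment was mostly lower in DKO. Each merged site took the highest fold enrichment of its peaks in a library, and a peak described here was the strongest of the first WT library at 1298 of 1356 sites. Of 3549 merged IKAROS sites called in all 4 libraries, 1356 held a promoter peak lacking ETS1, and 1034 of these were lower and 5 higher in DKO at an adjusted p below 0.05 in limma, against 79.8% lower and 0.31% higher over all sites. The share of lower sites was 76.3%, near that background. Groups did not overlap, with DKO lower, at 1183 of the 1356 sites, beside 89.4% over all. The median log2 change was -0.83 (quartiles -1.14 and -0.53), against -0.91 over all sites, -0.98 over 586 promoter sites with ETS1 and -0.88 over 935 distal sites lacking ETS1. Median fold enrichment over the 1356 sites was 12.2 and 13.5 in the WT libraries and 7.40 and 6.93 in the DKO libraries. After each library was centred on its median, which takes out the shared shift of -0.91, 60 of the 1356 sites were lower and 118 higher. Over all sites the numbers were then 221 and 267. On log2 of −log10 p in place of fold enrichment, 661 of the 1356 sites were lower, beside 2013 of all 3549. A call in both DKO libraries was a condition of this fit, so that sites that fell below the caller's threshold do not enter it.

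The change was larger at sites that were strong in WT. The 1356 sites were put in 4 groups of 339 by WT fold enrichment. In the lowest group (up to 9.50) the median log2 change was -0.49 and 158 sites were lower, and in the next it was -0.83 with 267 lower. In the third it was -0.92 with 295 lower, and in the highest (above 18.01) -1.06 with 314 lower. All 5 sites that were higher lay in the lowest group. WT values both sort the sites and enter the change, so this order is a description.

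**Figure D4:**
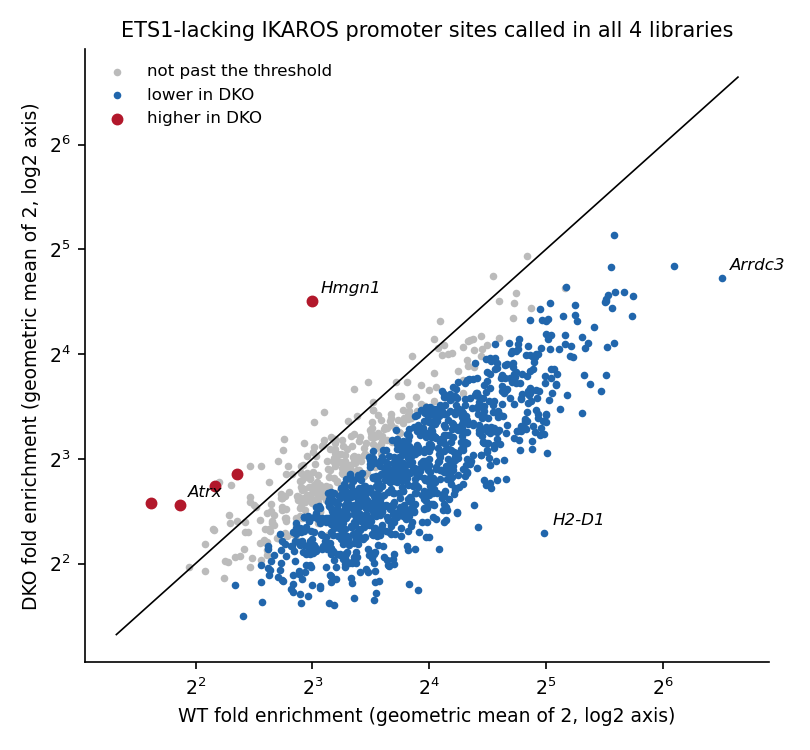
Fold enrichment in DKO against WT (geometric mean of the 2 libraries of each genotype, both axes log2) at the 1356 ETS1-lacking promoter sites called in all 4 IKAROS libraries, coloured by the limma call at an adjusted p of 0.05, with the line of equal values. Most points are blue, below the line and lower in DKO, 5 red points are higher, and Hmgn1 lies farthest above the line.

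The site with the largest rise was at Hmgn1, the other deleted gene. The peak at chr16:96349109-96349283 (summit in an intron, 35 bp downstream of the nearest start) had fold enrichments of 8.80 and 7.26 in WT and 24.5 and 21.1 in DKO. Both DKO values were above both WT values, by 1.51 ± 0.20 on the log2 scale (SE, n = 2 per genotype, limma adjusted p = 0.000299). The MEF H3K27ac antibody had a peak there in all 4 of its libraries. How the Hmgn1 allele was altered was not given in the sources used here. The others that were higher, named after their values were seen where the rule did not name them, were Tiparp with 4931440P22Rik (0.96), Atrx (0.69), Ube2g1 (0.57) and Limd2 with Gm10840 (0.50), all with WT fold enrichments between 3.01 and 5.76. Of the 5, the call at Hmgn1 held in every alternative fit. On log2 of −log10 p the limma adjusted p was 0.0787 at Tiparp, 0.129 at Atrx, 0.233 at Ube2g1 and 0.435 at Limd2. It was also above 0.05 at Atrx without WT replicate 2 (0.0859) or DKO replicate 2 (0.052), at Ube2g1 without WT replicate 1 (0.136) or DKO replicate 1 (0.112), and at Limd2 with the replicate block (0.0518) and without WT replicate 1 (0.218), DKO replicate 1 (0.164) or DKO replicate 2 (0.0758).

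The largest fall was at H2-D1, a classical MHC class I heavy chain gene. The peak had fold enrichments of 31.8 and 31.5 in WT and 5.03 and 4.77 in DKO, a log2 change of -2.69 ± 0.18 (SE, limma adjusted p = 0.000249). Further large falls, chosen after their values were seen, were at Mrpl41 with Pnpla7 (-2.16), the Hist2h2ab, Hist2h2ac and Hist2h2be histone cluster (-2.07), Foxp1 (-2.02), a forkhead repressor used throughout B cell development, and Bag6 (-1.96). Among the 10 strongest sites the changes ran from -1.78 at Arrdc3 to -0.44 at Elk4. The limma adjusted p at Elk4 was 0.0496 and ran from 0.0365 to 0.27 over the alternatives, above 0.05 with each library left out (0.0656 to 0.215). H2-D1 belongs to a family of closely similar genes, where read mapping can be uncertain, and mapping at this site was not tested.

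Sites were then sorted by gene class. The classes are lists of gene names, and each share is set beside the mean share over all 2897 sites of like strength, with no test. The 43 sites at B cell receptor signalling genes and the 69 at B cell transcription factor genes were kept about as often as sites of their strength. For the transcription factors, 38 were kept in DKO replicate 1 and 30 in DKO replicate 2, 55.1% and 43.5% beside a strength-standardised mean of 45.1%. Their median −log10 p was 15.4. For receptor signalling genes the shares were 53.5% and 46.5% beside 51.9%.

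Genes of B cell regulators showed both outcomes. At Rel, 3 sites that share 1 peak of the second WT library were kept in both DKO libraries. At Pax5, the commitment factor of B cells, 2 sites with 5.47 and 6.02 in the first WT library were kept in neither. The former lay in a merged site that was called in all 4 libraries, with 19.8 and 24.3 in WT and 10.4 and 9.15 in DKO. At Ikzf1, the gene of IKAROS, the strongest site had 8.31 and 6.69 in WT and 6.13 and 6.14 in DKO, and 2 weaker ones with 4.24 and 3.97 in the first WT library were kept in neither. At Ets1, the site at chr9:32503676-32505728 had 14.4 and 18.998 in WT and 9.53 and 8.92 in DKO, while a neighbour with 8.53 and 10.8 in WT had a peak in DKO replicate 1 only, with 4.49. At Irf8, which encodes an interferon regulatory factor, 1 of 2 weak sites was kept in DKO replicate 1 and the other in neither library. Ikzf1, Ets1 and Irf8 were named after their values were seen, because their products are factors profiled in the series.

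Antigen presentation genes held strong sites, with a median −log10 p of 31.5. Of 39 sites, 22 were kept in each DKO library, 56.4% (Wilson interval 41.0 to 70.7), beside a standardised mean of 66.9%. Class II and class I genes each held kept and lost sites. Among class II genes, H2-Eb1 had a site with 27.8 and 27.9 in WT and 14.5 and 13.6 in DKO, and H2-Aa one with 26.4 and 30.3 against 10.2 and 10.5. The H2-Ob flank above and a site of H2-DMb1 with 8.07 and 7.81 in WT had no DKO peak. Among class I genes, H2-D1, B2m, H2-Q4, H2-M3 and H2-T23 had sites kept in both DKO libraries. At H2-K1, a class I heavy chain gene, a site with 10.7 and 8.87 in WT had no DKO peak, and a second with 10.1 and 9.13 had one in DKO replicate 1 only. Except for H2-Ob, these genes were named after their values were seen.

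Splicing factor genes held the most often kept of the larger classes. Of 49 sites, 38 (77.6%) and 36 (73.5%) were kept, beside a standardised mean of 69.1% and a median −log10 p of 31.7. Srsf3, a serine and arginine rich splicing factor, had 28.1 and 30.8 in WT and 9.50 and 7.71 in DKO, and Hnrnpu, a nuclear matrix RNA-binding protein, had a site with 12.1 and 13.1 in WT and none in DKO. Another Hnrnpu site, with 17.6 and 7.73 in WT, was kept with 8.39 and 10.4 in DKO. Ubiquitin enzyme genes stood farthest above their strength among the larger classes, with 22 (68.8%) and 21 (65.6%) of 32 sites kept beside 49.5%. The standardised shares in the single libraries were 52.1% and 46.9%. Ube2d3, a ubiquitin conjugating enzyme, was kept with 26.2 and 28.3 in WT and 21.8 and 14.2 in DKO, and a site of Usp9x, a deubiquitinase, with 11.5 and 17.8 in WT was lost while 2 weaker ones beside it were kept.

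Respiratory chain and ATP synthase genes stood farthest below. Of 8 sites, 1 was kept in DKO replicate 1 and 2 in DKO replicate 2, beside a standardised mean of 41.4%. Ndufb11, a complex I subunit that shares its site with the splicing gene Rbm10, had 11.1 and 11.7 in WT and 9.15 and 11.4 in DKO, groups that overlapped, and a log2 change of -0.15 (limma adjusted p = 0.476). Ndufb2, another complex I subunit, had 9.56 and 10.9 in WT and no DKO peak. Replication and cell cycle genes were kept at 11 and 6 of 22 sites beside a standardised mean of 49.9%, so that the DKO replicates differed by 5 sites. Proteasome subunit genes were kept at 6 and 5 of 13 sites beside 56.1%, and RNA polymerase and Mediator genes at 10 and 7 of 17 beside 63.9%.

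The remaining classes lay between these. Cytosolic ribosomal protein genes were kept at 11 of 20 sites in each DKO library beside 58.8%, with Rpl10 kept (29.7 and 29.7 in WT, 15.8 and 15.5 in DKO) and the Rpl7a and Med22 site lost. Mitochondrial ribosomal protein genes were kept at 9 and 8 of 12 beside 67.5%, zinc finger genes at 34 and 32 of 55 beside 56.0%, and chromatin regulator genes at 34 and 31 of 56 beside 51.4%. Histone genes were kept at 11 and 10 of 19 beside 47.4%, and solute carrier genes at 22 and 24 of 40 beside 53.97%. B cell homing and cytokine receptor genes were kept at 19 and 22 of 39 beside 45.5%, among them Cxcr4, the receptor of CXCL12, with 16.7 and 18.4 in WT and 6.46 and 8.34 in DKO. Interferon and innate sensing genes were kept at 19 and 18 of 38 beside 38.8%, small GTPase genes at 25 and 21 of 50 beside 50.5%, DNA repair genes at 8 of 17 in each beside 54.5%, and apoptosis genes at 2 of 7 in each beside 39.4%. Translation factor and tRNA synthetase genes were kept at 20 and 19 of 29 beside 63.3%. The lymphoid progenitor and T cell lists held 1 site each, at Hes1 and Cd2, and the myeloid and erythroid list held 0.

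**Figure D5:**
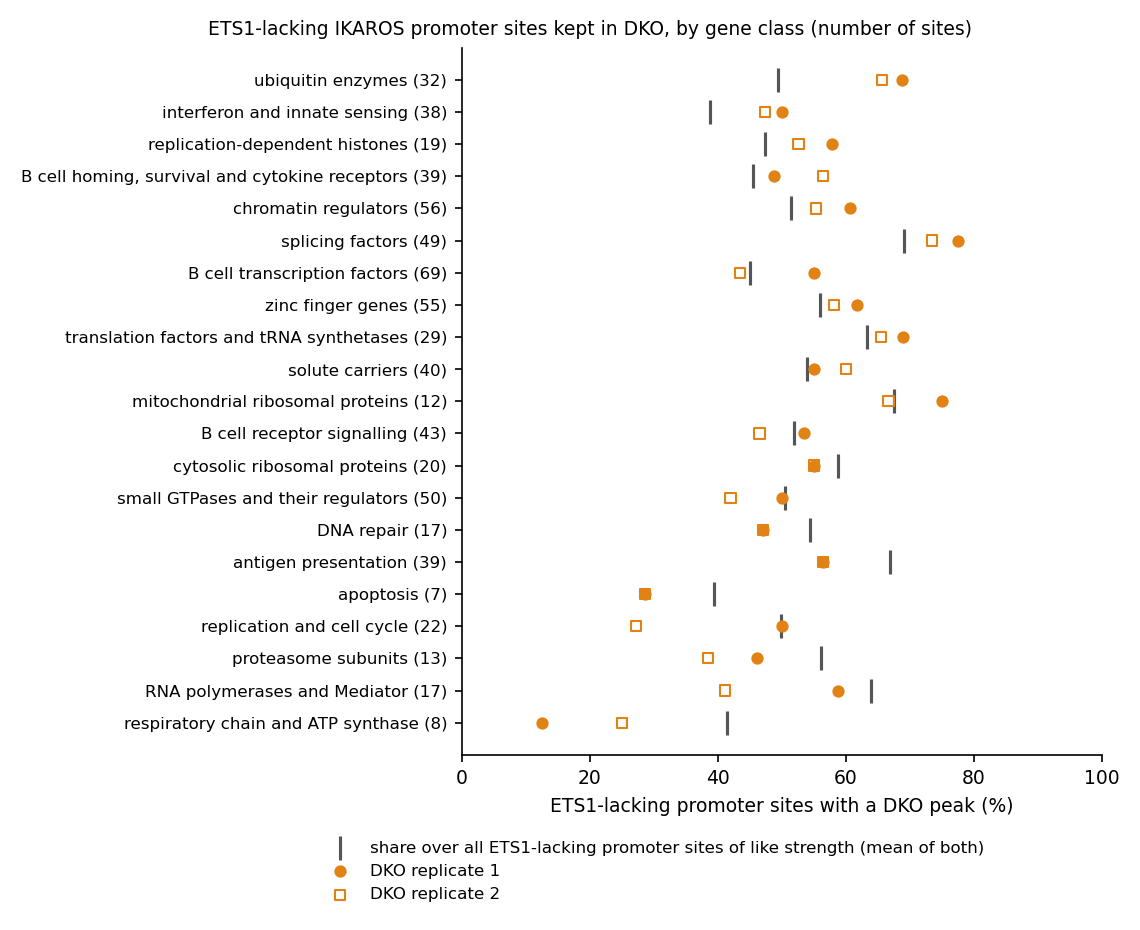
Share of ETS1-lacking IKAROS promoter sites with a peak in DKO replicate 1 (filled circles) and DKO replicate 2 (open squares), in percent, for gene classes with at least 3 sites, with the number of sites in brackets, ordered by the distance from the share over all such sites of like strength (grey bar). Ubiquitin enzyme genes lie to the right of their bar (68.8% and 65.6% against 49.5%) and respiratory chain genes to the left (1 and 2 of 8 sites, against 41.4%).

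Counts by gene took any IKAROS peak near a start, whether or not it was there in WT cells. Of the 2387 genes, 1682 had 1 site, 573 had 2 and 132 had 3 or more. Some IKAROS peak within 1000 bp of a start, at any of the positions, was called for 67.5% of genes in DKO replicate 1 and for 63.6% in DKO replicate 2, and 676 genes had none in either. Over all 3012 genes with a replicated IKAROS promoter site, with or without ETS1, the shares were 67.8% and 64.2%. Genes with 1 site had such a peak in 60.05% and 56.6% of cases, and genes with 2 or more in 85.2% and 80.3%.

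Most summits lay downstream of gene starts. The median position was 110 bp downstream (quartiles -205 bp, that is upstream, and 211 bp downstream), 64.2% were downstream and 15.9% lay within 100 bp of a start. Medians were 110 bp at sites kept in both DKO libraries and 108 bp at sites kept in neither. By GENCODE vM1, 1040 summits (35.9%) lay in introns, 745 between genes, 712 in 5′ UTRs, 380 in coding exons and 20 in 3′ UTRs. Both DKO libraries had a peak at 51.5% of the sites in 5′ UTRs and at 45.1% of those in introns, with median −log10 p of 21.7 and 18.9. Peaks that spanned a start made up 35.2% of the sites kept in both and 12.9% of those kept in neither, and the former were also wider.

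The sequence around the summits was rich in GC. Within 100 bp of the summit the median GC content was 63.2%, against 58.2% at promoter sites with ETS1, 48.3% at distal sites lacking ETS1 and 57.2% in windows of the same length at the starts of 22378 protein-coding genes. TGGGAA occurred on either strand in 14.1% of these sites, 14.98% of promoter sites with ETS1, 21.98% of distal sites lacking ETS1 and 15.6% of all gene starts. The ETS motif CCGGAAG occurred in 5.25%, against 8.73% with ETS1 and 8.18% of all starts. CCAAT, the NFY motif, occurred in 12.7% against 26.3% of all starts, and the SP motif GGGGCGGGG in 3.45% against 10.2%. The CRE motif TGACGTCA, the NRF1 motif GCGCATGCG, the YY1 motif AAGATGGCG and the E-box CACGTG were at 0.345%, 0.414%, 1.38% and 2.52%, against 1.66%, 1.47%, 1.83% and 4.98% of all starts. Windows of the sites were centred on summits, of which 15.9% lay within 100 bp of a start. Those of all starts were placed at the starts, so these shares compare unlike positions. TGGGAA and CCGGAAG both hold GGAA but cannot match at the same GGAA.

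Sites kept in both DKO libraries were richer in GC than those kept in neither, with medians of 64.7% and 60.2%. The same order held within each strength class up to a −log10 p of 50, with 63.7% against 60.7% between a −log10 p of 10 and 15, 65.7% against 61.2% between 15 and 20, and 62.9% against 59.95% between 20 and 30. TGGGAA occurred in 13.0% of the sites kept in both and 15.5% of those kept in neither, and CCGGAAG in 5.77% and 4.59%. The part of GC content in retention was not tested.

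ETS1 peaks of DKO cells were rare at these sites, where the rule fixed those of WT cells at 0. ETS1 peaks of DKO cells overlapped 6 sites in DKO replicate 1 and 4 in DKO replicate 2, together 8 of 2897, with Rps23 and Prkag1 called in both, against 159 and 146 of 1008 promoter sites with ETS1 and 5 and 6 of 2980 distal sites lacking ETS1. IRF8 had a peak at 12 and 18 of the sites in WT and at 1 and 4 in DKO, against 49 and 53 and then 14 and 13 of 1008 promoter sites with ETS1, and 41 and 48 and then 6 and 10 of 2980 distal sites lacking ETS1. PAX5 had one at 9 and 7 in WT and 0 in DKO, against 18 and 20 and then 0 and 1 with ETS1, and 1 and 2 and then 0 at the distal sites. OCT2 had one at 10 and 6 in WT and 0 and 1 in DKO, against 4 in both WT libraries and then 0 and 1 with ETS1, and 10 and 12 and then 1 and 2 at the distal sites. The lists of PAX5, OCT2 and IRF8 were short in all libraries.

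Values at the edge of the 1000 bp rule were as follows. The 3 sites farthest inside were at Selplg (995 bp, fold enrichments of 4.38 and 3.85 in WT), Fbxw7 (994 bp, 5.39 and 8.90) and Slc3a2 (989 bp, 7.10 and 5.08), of which Slc3a2 was kept in both DKO libraries and the others in neither. The 3 nearest outside were by 1700030K09Rik (just past the limit, 6.83 and 8.93), Itsn2 (1003 bp, 4.91 and 7.66) and Rnf145 (1004 bp, 8.51 and 13.1), of which the first was kept in both and the others in neither.

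The depth behind the peaks is known only in part, since the lists give no read totals. Where fold enrichment and −log10 p gave a single pileup (15 to 273 peaks per IKAROS list), pileups came in whole reads in both WT IKAROS lists, and in steps of 0.828 and 0.722 reads in DKO replicates 1 and 2. MACS2 scales the larger of ChIP and input down by default, and such steps are what a ChIP library scaled down to its input would give. Genotype and this scaling went together in the IKAROS lists and cannot be told apart. When the same number of top peaks by −log10 p was taken from each IKAROS library, 81.5% of 1564 sites lacking ETS1 were kept on average, with 82.7% and 80.2% in the DKO libraries.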

How the data were processed

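IKAROS and ETS1 ChIP-seq of rBs was used, with IRF8, PAX5 and OCT2 and, for peak numbers, all 64 lists of 16 antibodies. Input libraries were not analysed here. The authors sequenced the libraries on Illumina instruments, trimmed reads with cutadapt 1.16, mapped them to mm9 with BWA and called peaks with MACS2 2.1.1.20160309 for each library, per the labels and the study's methods. In the deposited lists fold enrichment is the ratio of pileup to local background at the summit. The deposited −log10 p and −log10 q values are the authors' Poisson test at the summit, and the deposited score is 10 times −log10 q as a whole number and was not tested. The lowest −log10 q in the IKAROS and ETS1 lists was 2.01, which is stricter than the q cutoff that the study's methods name for narrow peaks. Each merged site took its highest fold enrichment per library.

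Peaks were joined to GENCODE vM1 protein-coding transcripts and to the mm9 genome (NCBIM37), in which every IKAROS and ETS1 peak fell inside its chromosome. A WT site was kept where a DKO peak overlapped it by 1 bp or more. Shares carry 95% Wilson intervals, which cover counting error only. Strength-standardised shares weight the share in 6 classes of −log10 p (edges 10, 15, 20, 30 and 50) by the numbers of sites compared. Peak numbers were fitted on log2 values with limma 3.58.1 in R 4.3.3 over 16 antibodies, and log2 fold enrichment over 3549 sites called in all 4 libraries, merged from the 4 lists, with Benjamini-Hochberg adjustment over all of them. Share differences were tested with an exact permutation test of 2 against 2, whose smallest p is 0.333. Scripts were tested on simulated data. Python 3.11.15, pandas 2.3.3, scipy 1.17.1, pysam 0.24.0 and matplotlib 3.10.9 were used. The replicates are biological per the study, with 2 per genotype.

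The sites, gene lists and motifs were chosen with earlier results of these data known. Named sites were the 10 with the highest mean WT −log10 q, the 10 highest kept in neither DKO library, the 3 lowest kept in both, in each of 21 gene classes with at least 3 sites the highest kept and lost one, and the 3 nearest to either side of the 1000 bp limit, on chromosomes 1 to 19 and X. Alternatives covered thresholds, windows, ETS1 absence, top peaks, summit overlap, chromosomes, fits and left-out libraries. Merged sites, a 500 bp reach, second summits inside and strength standardisation were added after seeing the data.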

Additional observations from a re-analysis of the deposited data

Results flagged for a closer look

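H3K27ac of MEFs, data of another cell type that enter no comparison of rBs, had a peak at 86.3% of the ETS1-lacking IKAROS promoter sites in WT replicate 1, 86.3% in WT replicate 2, and 86.3% and 86.5% in the DKO libraries, beside 78.1% of promoter sites with ETS1 and 22.5% of distal sites lacking ETS1 in WT replicate 1. The share was 89.3% at sites kept in both DKO IKAROS libraries and 82.2% at sites kept in neither, in WT replicate 1. The sites kept were also stronger. Up to a −log10 p of 10 the shares were 83.3% and 77.7%, and between 10 and 15 they were 83.6% and 80.5%. Between a −log10 p of 15 and 20 the shares were 85.5% and 86.4%, between 20 and 30 they were 88.1% and 89.04%, and between 30 and 50 they were 89.97% and 92.6%.

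Brd3 of MEFs, a bromodomain protein, had a peak at 66.1% and 63.6% of the sites in the WT libraries and at 26.4% and 36.5% in the DKO libraries, beside 68.6% and 67.8% in WT and 35.9% and 43.7% in DKO at promoter sites with ETS1, and 10.3% and 10.1% in WT at distal sites lacking ETS1. Over all promoters, the WT lists of Brd3 held 13696 and 13901 peaks and the DKO lists 5277 and 6850.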

How the results depend on the processing

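The mean share of sites kept was 53.8% and moved by less than the spread between DKO libraries under a −log10 q or fold enrichment of at least 4, summits inside the other peak, windows of 500 and 2000 bp, both other ETS1 rules, WT replicate 2 peaks as the sites, chromosomes 1 to 19, merged sites and second summits inside. It was 81.5% with equally long lists of top peaks and 66.9% with DKO peaks within 500 bp, and 40.2% to 56.2% with 1 library left out. Its lowest value was without WT replicate 1, where sites of WT replicate 2 needed no second call. The difference from promoter sites with ETS1 kept its sign except when standardised for strength (2.86 points, exact permutation p = 0.667), and ran from -19.4 to -13.5 points with 1 library left out. It was -6.36 points with top peaks and -8.34 with no WT ETS1 peak within 500 bp. That from distal sites kept its sign in all alternatives, with 1.78 points after standardising, 4.32 with top peaks (0.98 in DKO replicate 2) and 14.4 to 19.3 with 1 library left out. The fall in peak numbers had an adjusted p of 0.0837 without DKO replicate 1 and 0.0959 without DKO replicate 2 (changes of -0.94 and -0.82), and changes from -1.02 to -0.74 over all left-out libraries.

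Sites lower in DKO were 2832 of 3549, and 221 after centring, and 1034 of the 1356 sites here, 60 after centring and 661 on log2 of −log10 p (2013 over all). With 1 library left out they numbered 2474 to 2853 and 859 to 1056. Replicate numbers are shared between genotypes, but same-numbered deviations correlated at -0.061 over sites, so the samples share only a number. With a replicate block the peak number fell by 0.88 (limma adjusted p = 0.0458), with 2850 sites lower and 1045 of those here. Named sites reversed after centring were Elk4 (0.47), Mdm2 (0.21), Brca1 with Nbr1 (0.29), H2-Ob (0.23), Ube2d3 (0.29), Bcl10 (0.23), Cdc42 (0.33), Mll5 with 5031425E22Rik (0.14), Trim12a (0.071) and Ndufb11 with Rbm10 (0.76). Lmbrd1 reversed on log2 of −log10 p (-0.022) and without DKO replicate 1 (-0.072), and the change at Ndufb11 with Rbm10 was 0.0074 without DKO replicate 1 and -0.32 without DKO replicate 2. The cause of these changes was not tested beyond the centring itself. Peaks below the caller's threshold are not listed, which limits every count here.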
